A study of Mus musculus with 8 samples.

Results

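The alpha, mu and pi glutathione transferases are the 3 classes of cytosolic enzyme that carry most of the glutathione-conjugating activity of liver. A list of 10 mouse genes of these classes was used, and a probe was taken as theirs where its RefSeq accession belongs to the symbol. That gave 9 of 10 listed genes, Gsta2, Gsta3 and Gsta4 of the alpha class, Gstm1, Gstm2, Gstm3, Gstm4 and Gstm6 of the mu class and Gstp1 of the pi class, among 24921 genes or transcripts tested. No probe used here carries an accession of Gsta1, so it has no value. RNA came from frozen livers of 8 female B6C3F1 mice, a hybrid strain, bought at 5 to 6 weeks of age and kept for at least 7 days before dosing. The vehicle group, 4 mice with replicate numbers 2, 3, 4 and 6, was gavaged with corn oil. The furan group, 4 mice with replicate numbers 41, 42, 43 and 44, was gavaged with furan in corn oil at 8 mg per kg body weight. Both groups were dosed for 21 days and sampled 4 hours after the last dose, and each mouse was measured on 1 one-colour Agilent array, so the comparison asked what this exposure did to liver RNA levels. Furan is a volatile ring compound found in heated foods, and liver enzymes turn it into a reactive aldehyde that binds thiols, glutathione among them.

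Glutathione transferases join glutathione to electrophilic compounds, which are then trimmed and acetylated to mercapturates or exported from the cell. Alpha class enzymes also reduce lipid peroxides, Gsta4 is the form known for conjugating the lipid aldehyde 4-hydroxynonenal, mu class enzymes take up epoxides and many aromatic electrophiles, and pi class enzymes are abundant in mouse hepatocytes, more so in males. Several of these genes are textbook targets of the transcription factor NRF2, which binds the antioxidant response element, and some also respond to the xenobiotic receptors CAR, PXR and AHR.

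The members of a class are paralogues, and the promoters of some of them were compared. RefSeq promoter windows on GRCm38.p6 were found for 9 of the 10 listed genes, Gsta4 being the one without, and the 250 bases before the start site were read. The window of Gsta2, the member that changed most, and that of Gsta1, its neighbour in the family on chromosome 9, are shown for their likeness, with their longest shared run of 29 bases in capitals. They lie at chr9:78347146-78347395 on the minus strand and chr9:78230419-78230668 on the plus strand.
Gsta2: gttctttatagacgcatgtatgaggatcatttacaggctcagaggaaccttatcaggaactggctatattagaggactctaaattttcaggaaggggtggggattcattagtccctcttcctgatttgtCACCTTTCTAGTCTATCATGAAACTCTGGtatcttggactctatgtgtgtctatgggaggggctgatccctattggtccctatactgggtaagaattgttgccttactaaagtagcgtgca
Gsta1: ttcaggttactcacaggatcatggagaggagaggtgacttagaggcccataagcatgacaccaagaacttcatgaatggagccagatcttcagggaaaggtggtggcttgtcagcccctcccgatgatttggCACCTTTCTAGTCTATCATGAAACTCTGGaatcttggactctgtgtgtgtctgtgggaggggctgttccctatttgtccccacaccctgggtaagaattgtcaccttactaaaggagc
In a global alignment 70.5% of the columns of this pair were identical, against 50.5% for Gsta2 and Gsta3. No mu class pair and no unrelated pair of windows was aligned, so these shares have no baseline.

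Windows of Gstp1, its neighbour Gstp2 and Gsta3 are shown because they hold a motif that was searched on both strands. The motifs were the core of the antioxidant response element, TGACNNNGC, and the AP-1 site TGACTCA, and their matches, in capitals, did not overlap. The windows lie at chr19:4037913-4038162 (minus strand), chr19:4042222-4042471 (minus strand) and chr1:21240335-21240584 (plus strand).
Gstp1: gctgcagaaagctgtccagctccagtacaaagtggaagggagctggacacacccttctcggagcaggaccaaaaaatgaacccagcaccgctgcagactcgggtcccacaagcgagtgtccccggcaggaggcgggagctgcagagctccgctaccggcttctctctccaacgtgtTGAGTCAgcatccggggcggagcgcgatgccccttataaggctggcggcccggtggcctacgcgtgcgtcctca
Gstp2: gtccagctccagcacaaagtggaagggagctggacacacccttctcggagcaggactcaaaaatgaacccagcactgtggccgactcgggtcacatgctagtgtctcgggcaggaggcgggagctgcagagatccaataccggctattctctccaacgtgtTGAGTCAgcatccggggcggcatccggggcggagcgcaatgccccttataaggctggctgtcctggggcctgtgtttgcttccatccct
Gsta3: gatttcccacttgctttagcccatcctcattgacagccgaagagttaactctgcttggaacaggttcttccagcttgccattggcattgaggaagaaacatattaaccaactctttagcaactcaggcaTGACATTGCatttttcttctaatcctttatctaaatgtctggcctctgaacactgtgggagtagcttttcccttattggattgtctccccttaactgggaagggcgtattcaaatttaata
The Gstp1 and Gstp2 windows were identical in 78.1% of aligned columns, and both carry the AP-1 motif as its reverse complement, TGAGTCA in the printed sequence, from 74 to 68 bases before the start site in Gstp1 and from 89 to 83 in Gstp2. Gsta3 was the only listed gene of the 9 with a window that held TGACNNNGC, and Gstp1 the only one with TGACTCA. Only exact matches were counted. The run TGAGTCAGC in the Gstp1 and Gstp2 windows differs from TGACNNNGC only by a G in place of its first C, and was not counted as a match to it. Of all 32851 windows of the same length, 10.2% held the first motif and 4.46% the second. A match describes letters in this window and says nothing of binding, and elements farther upstream were not searched.

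Levels are given as log2 signal, with the 75th percentile of the array set to 0, and changes as the furan mean minus the vehicle mean. Between 55.1% and 86.2% of the probe spots of an array were well above background, and vehicle replicate 2, with the highest share, stood apart from the other 7 arrays (55.1% to 69.4%). Probes were kept if well above background on at least 4 of 8 arrays, and all 18 kept probes of the 9 genes were so on all 8. On every array 0 spots were saturated. All 8 hepatocyte markers, Alb and Hnf4a among them, were well above background on all 8 arrays. Of 40 tested markers of 6 other cell classes 0 passed the threshold in limma (smallest adjusted p = 0.0550, for the endothelial gene Pecam1). The share over all features was 4.18%, so few calls would be looked for among 40 genes. The summed linear level of the 8 sinusoidal endothelium markers, relative to the 75th percentile, was 93.7 to 113 on the vehicle arrays and 77.4 to 93.4 on the furan arrays, and its part in the results was not tested. In these whole-liver samples, fewer cells of a type and less RNA per cell cannot be told apart.

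Of the 9 genes, 2 rose with furan, Gsta2 and Gstp1, and 0 fell, at a limma p of 0.05 adjusted over all 24921 features. Over all features 4.18% passed, 2.87% as higher and 1.31% as lower. Gsta2 was 3.80-fold higher and Gstp1 1.48-fold higher. Of the mu class, Gstm1, Gstm3 and Gstm4, were 1.40-fold, 1.59-fold and 1.41-fold higher on average, with adjusted p of 0.0604, 0.0540 and 0.0592, and did not pass. In 5 of the 9 genes every furan array lay above every vehicle array, where 10.8% of all features did so, and in 0 of the 9 every furan array lay below, where 7.36% did. The median log2 fold change of the 9 genes was 0.48, beside -0.09 over all features. Changes were above 0 in 7 genes and below 0 in Gsta4 and Gstm6. Those 2 genes lay below the median of all features under each of the 6 scalings. The reported scaling, the shift to the array median and no shift differ only by a constant per array. A gene's distance from that median is thus nearly the same in them by construction, and for Gsta4 it was only -0.014. Gsta3 also lay below the median with quantile normalization, with normexp and in the authors' value table. The sign of Gsta4 and Gstm6 was not fixed: a shift to the array median, which put the median of all features at 0.39, made both positive, and no shift made Gsta4 positive.

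**Figure D1:**
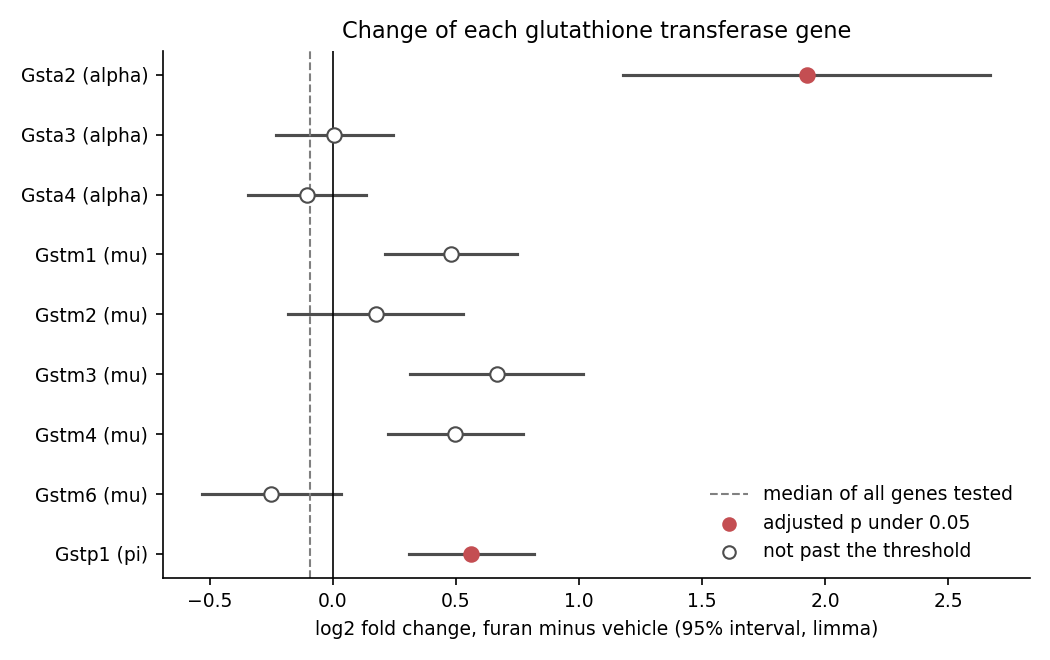
Log2 fold change of each of the 9 genes, furan minus vehicle, with its 95% interval from limma; filled points passed an adjusted p of 0.05 and the dashed line is the median of all 24921 features. Gsta2 (1.92) stands to the right of the other 8, and the intervals of Gsta3, Gsta4, Gstm2 and Gstm6 cross 0.

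Gsta2 encodes an alpha class subunit with peroxidase activity towards lipid hydroperoxides. Its level was 1.84, 1.92, 2.77 and 3.02 on the arrays of vehicle replicates 2, 3, 4 and 6, and 4.57, 3.72, 4.58 and 4.39 on those of furan replicates 41, 42, 43 and 44. The lowest furan array, replicate 42, lay above the highest vehicle array, replicate 6, and the vehicle arrays were spread over 1.18, the widest range of the 9 genes in that group. The means were 2.39 ± 0.60 and 4.31 ± 0.41 (SD, n = 4 each), a change of 1.92 ± 0.32 (SE, limma adjusted p = 0.0230), and the 95% interval ran from 2.26-fold to 6.37-fold. Gsta2 was measured with 1 kept probe. The probe sequence was not used here, and signal from Gsta1 RNA cannot be told apart from that of Gsta2.

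The slide held its arrays in 2 rows and 4 columns, and each column held 1 vehicle and 1 furan array. Within the columns the difference for Gsta2 was 0.70, 2.66, 2.73 and 1.62, and within the rows it was 2.06 and 1.79. All 6 differences were positive. With the column as a block the adjusted p was 0.150, and limma called 0 of all features in that fit. Its unadjusted p was under 0.05 for 4723 features, Gsta2, Gstp1, Gstm1, Gstm3 and Gstm4 among them. Leaving out 1 array kept the change of Gsta2 between 1.74 and 2.14. The call held without vehicle replicate 2 (adjusted p = 0.0368), vehicle replicate 6 (0.0415) or furan replicate 42 (0.0412), and was lost without vehicle replicates 3 (0.0580) and 4 (0.0509) and furan replicates 41 (0.0735), 43 (0.0746) and 44 (0.0679).

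Gsta3, the alpha class subunit known for conjugating aflatoxin epoxide in mouse liver, did not pass. Its 4 vehicle values were 9.00, 9.21, 9.05 and 9.35, and its 4 furan values 9.12, 9.22, 9.23 and 9.08. All furan values lay within the vehicle range. The change was 0.01 ± 0.10 (limma adjusted p = 0.973), and its 95% interval, from 0.85-fold to 1.18-fold, leaves out a change of the size seen in Gsta2. A second Gsta3 probe gave 0.05 ± 0.10.

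Gsta4, the 4-hydroxynonenal-conjugating form, had vehicle values of 2.43, 2.31, 2.49 and 2.52 and furan values of 2.51, 2.14, 2.33 and 2.34. The groups overlapped, with furan replicate 42 alone below the vehicle range. Its 1 kept probe was printed in 10 spots, and the change was -0.11 ± 0.10 (limma adjusted p = 0.517). The 95% interval ran from 0.79-fold to 1.10-fold.

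**Figure D2:**
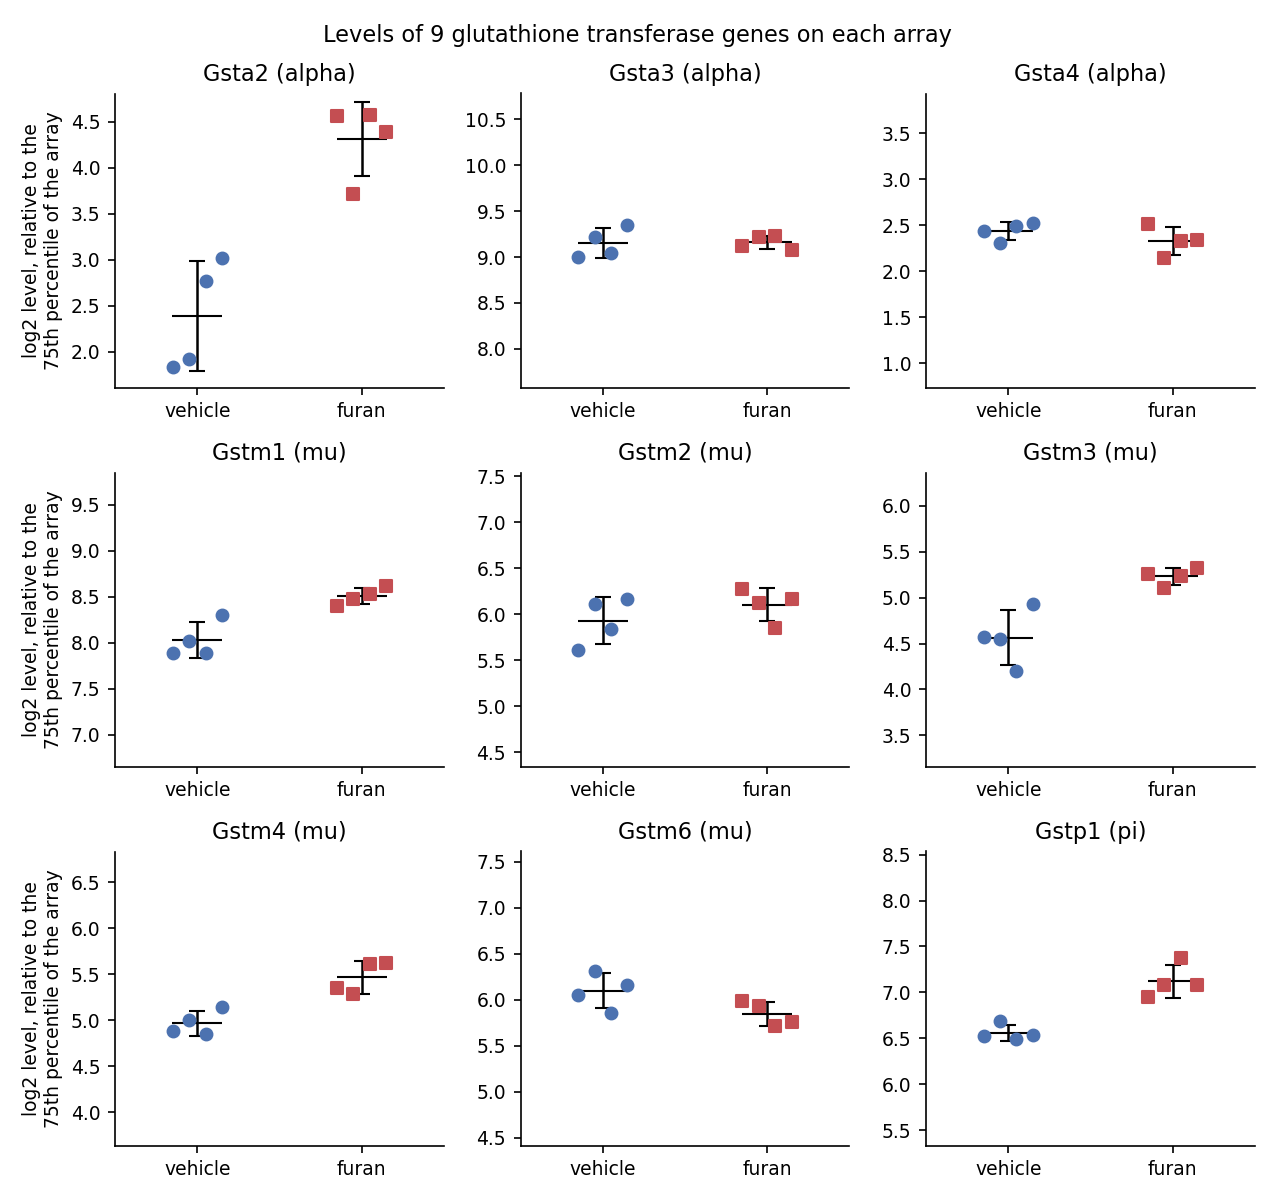
Log2 level of the 9 genes on each array, relative to the 75th percentile of the array, with circles for the 4 vehicle and squares for the 4 furan arrays; bars are the mean ± SD and every panel spans the same height around its own centre. The groups are apart for Gsta2, Gstm1, Gstm3, Gstm4 and Gstp1 and overlap for the other 4.

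Among the mu genes, Gstm1 encodes the classic mu class subunit of mouse liver. Its vehicle values were 7.89, 8.02, 7.89 and 8.30 and its furan values 8.40, 8.48, 8.53 and 8.62. All furan arrays lay above all vehicle arrays, the nearest pair being vehicle replicate 6 and furan replicate 41. The change was 0.48 ± 0.12 (limma adjusted p = 0.0604) with the brightest probe, while the second probe gave 0.68 ± 0.12 and passed among all 33848 probes tested singly (adjusted p = 0.0288).

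Gstm3 encodes another mu class subunit. Its vehicle values were 4.57, 4.55, 4.20 and 4.93 and its furan values 5.25, 5.11, 5.24 and 5.32. The furan arrays were within 0.21 of each other and the vehicle arrays within 0.73, with no overlap. The change was 0.67 ± 0.15 (limma adjusted p = 0.0540), and it passed without vehicle replicate 6 (0.0467) but in no other fit that left out 1 array. The second probe gave 0.56 ± 0.19 (adjusted p = 0.144 among all probes).

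Gstm4, a further mu class subunit gene, had vehicle values of 4.88, 5.00, 4.85 and 5.15 and furan values of 5.35, 5.28, 5.62 and 5.62. Again the groups did not overlap. The change was 0.50 ± 0.12 (limma adjusted p = 0.0592). A second probe gave 0.23 ± 0.21 (adjusted p = 0.495 among all probes), so the size of this change depended on the probe.

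Gstm2 lies between Gstm3 and Gstm1 in the order of the family on chromosome 3. Its vehicle values were 5.61, 6.11, 5.84 and 6.17 and its furan values 6.28, 6.13, 5.85 and 6.16. Only furan replicate 41 lay above the vehicle range. The change was 0.17 ± 0.15 (limma adjusted p = 0.478), and the other probes gave 0.11 ± 0.14 and 0.06 ± 0.19.

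Gstm6 had vehicle values of 6.05, 6.31, 5.86 and 6.16 and furan values of 5.98, 5.93, 5.72 and 5.75. Furan replicates 43 and 44 lay below the vehicle range and the other furan arrays within it. The change was -0.25 ± 0.12 (limma adjusted p = 0.252), with -0.22 ± 0.13 and -0.31 ± 0.14 for its other probes. The difference was negative in all 4 slide columns.

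Along chromosome 3 the mu genes follow each other in the order Gstm5, Gstm7, Gstm6, Gstm3, Gstm2, Gstm1 and Gstm4, with 3 pseudogenes and no other gene of the annotation among them. Gstm5 and Gstm7 were added after their values were seen, as the remaining genes of this row. In that order the changes were 0.37, -0.22, -0.25, 0.67, 0.17, 0.48 and 0.50. Gstm5 did not pass (limma adjusted p = 0.0960), nor did Gstm7 (0.298). By these values, none of them past the threshold, the genes with the larger changes were not all neighbours. Whether position in the row matters was not tested. All 7 genes of the 9 that had several kept probes gave the same sign with each of them. Cross-signal between these paralogues was not tested, since probe sequences were not used here.

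**Figure D3:**
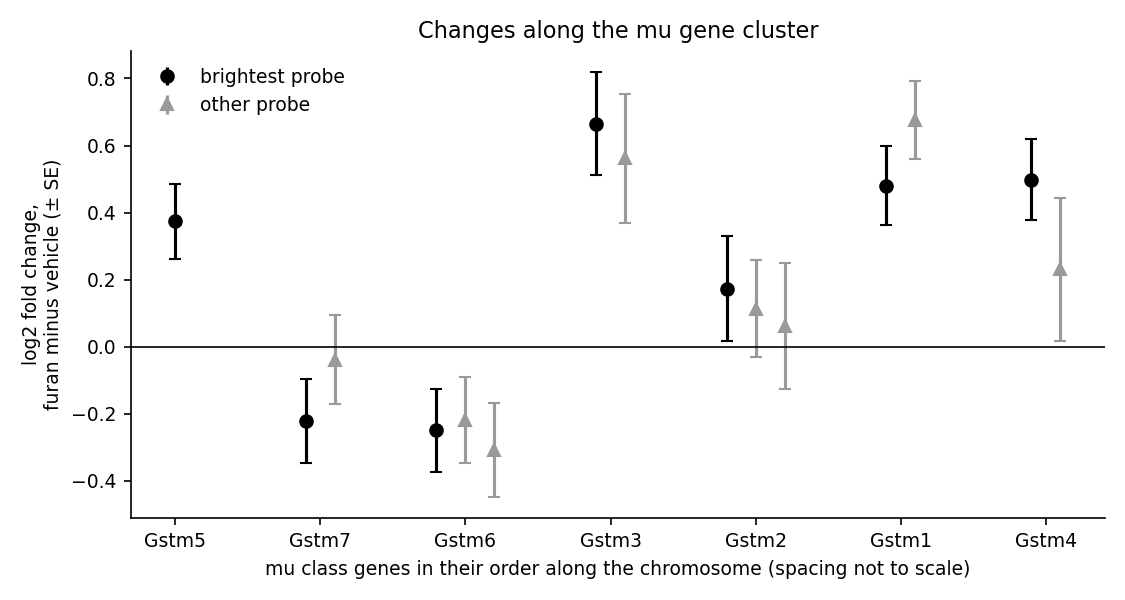
Log2 fold change ± SE of every kept probe of the 7 mu class genes, placed in their order along chromosome 3 with spacing not to scale; circles are the brightest probe of a gene and triangles its other probes. The probes of Gstm6 sit below 0 and those of Gstm3, Gstm1 and Gstm4 above it, with Gstm2 near 0 between them.

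Gstp1, the pi class subunit, had vehicle values of 6.53, 6.68, 6.49 and 6.54 and furan values of 6.95, 7.08, 7.38 and 7.08. The groups did not overlap, and furan replicate 43 was the highest. The means were 6.56 ± 0.09 and 7.12 ± 0.18 (SD, n = 4 each), a change of 0.56 ± 0.11 (SE, limma adjusted p = 0.0354) or 1.48-fold, with a 95% interval from 1.24-fold to 1.76-fold. The second probe gave 0.57 ± 0.13 and did not pass among all probes tested singly (adjusted p = 0.0627), where the first did (0.0415). Within the slide columns the difference was 0.54, 0.69, 0.42 and 0.59.

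The Gstp1 call was lost in each of the 8 fits that left out 1 array, with changes of 0.48 to 0.62. Omitting a vehicle array gave adjusted p of 0.0559 (replicate 2), 0.0606 (3), 0.0922 (4) and 0.0897 (6). Omitting a furan array gave 0.0678 (replicate 41), 0.0871 (42), 0.0768 (43) and 0.0862 (44). With the slide row as a block it was 0.0511 and with the column 0.135. Its neighbours in the family were Gstp2, with a change of 0.35 ± 0.09 (limma adjusted p = 0.0677), no overlap and 0.54 ± 0.14 for its other probe, and Gstp3, named after its value was seen, with -0.21 ± 0.17 (0.440). Gstp1 and Gstp2 are near-identical in their coding sequence, and their signals cannot be told apart here.

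Within the alpha and mu classes 13 pairs of genes were compared for the size of their change, 3 alpha pairs and 10 mu pairs, with a 2-sided exact permutation test of the difference between their levels on each array. With 70 regroupings the smallest possible p is 0.0286, and 7 pairs reached it, for each an adjusted p of 0.0531, so 0 of 13 passed after adjustment. At that smallest p, whether a pair passes depends on how many other pairs reach it too. The count of 0 therefore cannot decide about any single pair. Gsta2 changed more than Gsta3 by 1.92 ± 0.35 and more than Gsta4 by 2.03 ± 0.30 (SE; higher on 4 of 4 furan arrays than on any vehicle array). Gstm1, Gstm3, Gstm4 and Gstm2 differed from Gstm6 by 0.73 ± 0.14, 0.91 ± 0.15, 0.75 ± 0.17 and 0.42 ± 0.12, each with no overlap. The seventh pair was Gstm2 and Gstm3, whose changes differed by -0.49 ± 0.17. Those of Gstm1 and Gstm4 differed by -0.02 ± 0.07 (exact permutation p = 0.857). Without vehicle replicate 2, 8 pairs passed.

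Of the pathway around these enzymes, 5 gene lists were read in the same fit. In that fit 2.87% of all features passed as higher and 1.31% as lower, so a count of 0 or 1 in a short list says little about the list. The glutathione supply and NRF2 sentinel lists share Gclc and Gclm, so a rise of Gclc counts in both. Of 14 tested transferases of other genes and classes (17 listed), the theta, omega, zeta, kappa and microsomal forms among them, 0 passed in either direction in limma, with a median log2 fold change of -0.05; the smallest adjusted p was that of Gstp2. With normexp 1 was higher and 1 lower, 1 was higher with trend and robust, and 1 was lower in the authors' value table. Of 6 tested genes that supply glutathione (7 listed), 1 rose, Gclc, which encodes the catalytic subunit of glutamate-cysteine ligase, and the median was 0.38. Gclc had vehicle values of 5.37, 5.43, 5.71 and 5.16 and furan values of 6.30, 6.10, 6.25 and 6.11, a change of 0.77 ± 0.13 (limma adjusted p = 0.0224) with no overlap. Its call was kept without vehicle replicate 2 (0.0381) or 4 (0.0264) and lost on omitting any other array (0.0532 to 0.0734). The list had 2 higher genes with the filter on all 8 arrays, trend and robust or array weights, and 0 with a shift to the median, no shift, no filter or the column block.

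Of 15 tested genes of the mercapturate pathway and conjugate export (18 listed), 0 rose and 1 fell, Nat8f2, of the N-acetyltransferase 8 family whose best known member acetylates cysteine conjugates. It had vehicle values of 3.63, 3.95, 3.59 and 3.62 and furan values of 2.59, 2.64, 3.18 and 3.08. Its level fell by 0.83 ± 0.16 (limma adjusted p = 0.0365), with all furan arrays below all vehicle arrays. Omitting any single array lost this call (0.0529 to 0.0981). The list had 2 higher and 2 lower genes in the authors' value table and with the filter on all 8 arrays, and 0 of either with a shift to the median, no shift, no filter or the column block. The median of the list was 0.05.

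Of 10 sentinel genes of NRF2, a list drawn up with earlier results of these arrays known and so no independent evidence, 8 rose and 0 fell, with a median of 1.02. The quinone reductase gene Nqo1 rose by 1.35 ± 0.13 (limma adjusted p = 0.00501), the epoxide hydrolase gene Ephx1 by 1.00 ± 0.11 (0.00603), the carbonyl reductase gene Cbr1 by 0.81 ± 0.09 (0.00847) and the sulfiredoxin gene Srxn1 by 1.25 ± 0.16 (0.0106). The count of 8 became 1 with a shift to the array median, 0 with the slide column as a block and 4 with no filter. It was 6 with no shift and 9 with trend and robust. It also went down to 4 without furan replicates 41, 43 or 44 and to 5 without vehicle replicates 3 or 6. Without furan replicate 42 it was 6, and without vehicle replicate 4 it was 7. Of 9 tested targets of CAR, PXR and AHR (10 listed), 0 passed in limma, with a median of -0.25, and Cyp3a13, a cytochrome P450 gene, had the smallest adjusted p (0.0570, change 0.37 ± 0.09). That count of 0 changed with the processing: 2 were lower in the authors' value table and with normexp, 1 was higher and 2 lower with array weights, 1 was higher and 1 lower with the filter on all 8 arrays or with trend and robust, and 1 was lower with quantile normalization or without vehicle replicate 2. Whether the lists differ from the transferases was not tested.

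**Figure D4:**
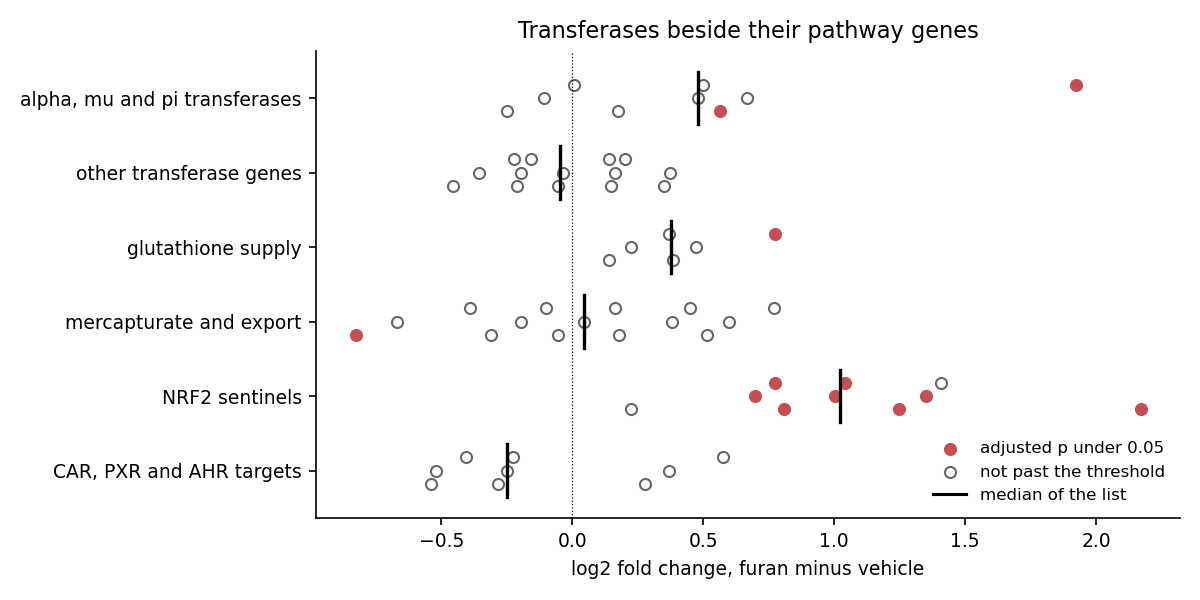
Log2 fold change of each tested gene, furan minus vehicle, for the 9 alpha, mu and pi transferases and the 5 pathway lists; filled points passed an adjusted p of 0.05 and the upright bar is the median of the list. The medians run from -0.25 for the CAR, PXR and AHR targets to 1.02 for the NRF2 sentinels, with 0.48 for the transferases.

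Among 14286 other genes with an ordinary symbol, the 3 whose levels followed Gsta2 most closely over the 8 arrays were Slc22a29, of the organic anion transporter family (Pearson r = 0.991), Usp9x, a deubiquitinase gene (0.988), and Pcna, the DNA polymerase clamp gene (0.987). These points share the 2 groups, and with the group means taken out the correlation was 0.967, 0.943 and 0.926. The 3 genes were picked by r over these same arrays, which includes those deviations, so these values are not independent of the choice. Slc22a29 rose by 1.91 ± 0.38 and Usp9x by 0.60 ± 0.10 (limma adjusted p = 0.0355 and 0.0234), and Pcna had a change of 0.40 ± 0.09 (0.0563). The call of Slc22a29 held only without furan replicate 42 among the 8 fits that omitted an array, and that of Usp9x only without vehicle replicate 2, with adjusted p up to 0.101 and 0.0755. Slc22a29 was also lost with quantile normalization (0.0919), no shift (0.0608), no filter (0.0954), and the row (0.0548) or column (0.171) as a block. Usp9x was lost with a shift to the median (0.460), no shift (0.0759), no filter (0.0765) and the column block (0.154).

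**Figure D5:**
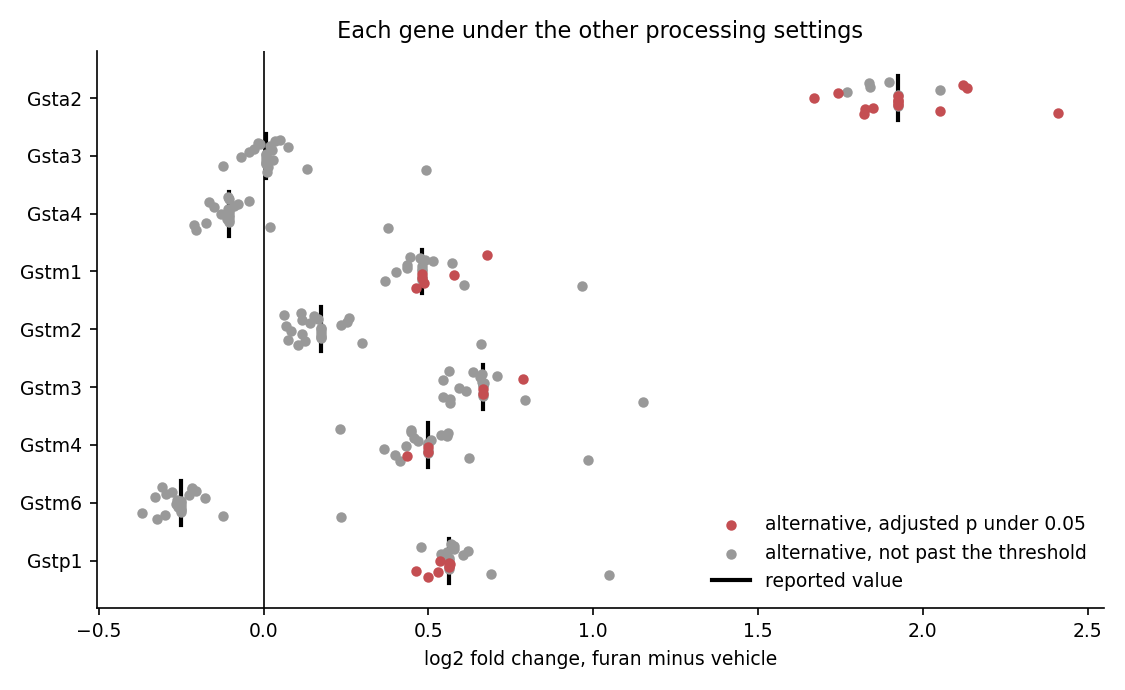
Log2 fold change of each of the 9 genes, furan minus vehicle, under the other processing settings, each fit without 1 array included; dots are single settings, coloured where the adjusted p was under 0.05, and the upright bar is the reported value. Gsta2 ranges from 1.67 to 2.41, Gsta3 lies on both sides of 0, and the dots farthest right for the other genes come from the shift to the array median.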

How the data were processed

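The members, gene lists and tests were chosen with earlier results of these data known. Spot intensity, 1 colour and 1 scan per array, came from Agilent Feature Extraction 11.0.1.1, background-subtracted and detrended, per the file headers. The authors also deposited processed log2 values; how they were made is not stated in the sources used here. Control spots and spots marked as outliers were left out, each array's 75th percentile was subtracted from its log2 processed intensity, and replicate spots of a probe were averaged. Probes well above background on at least 4 of 8 arrays were kept (33848 of 55681), and each gene took its brightest kept probe. Symbols came from RefSeq accessions through a table for GRCm38.p6; the array annotation is on another build, so probes have no positions here. The groups were tested 2-sided in limma 3.58.1 (R 4.3.3; lmFit, then eBayes), with 1 group term and Benjamini-Hochberg adjustment over all 24921 features. The fit was tested on simulated data with independent noise for each gene. Shifts of whole arrays and slide effects were not simulated, so that test does not cover them. The labels name 4 biological replicates a group and a randomized block design without its blocks. The number of arrays limits precision.

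Named genes were the 9 tested members, up to 4 called genes of each pathway list (otherwise the one with the smallest adjusted p), and the 3 genes most like Gsta2. Alternatives were other scalings (quantile, median, none), normexp with an offset of 50 on the median spot intensity with quantile normalization, the authors' table, other filters on dim probes, outlier spots kept, mean or single probes, trend and robust, array weights, a block for slide row or for column, omission of each array, and thresholds of 0.01 or at least 1.5-fold. Promoter alignments used Biopython 1.88.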

Additional observations from a re-analysis of the deposited data

How the results depend on the processing

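The 2 higher members became 1 with a median shift, no shift, the slide row as a block or at least 1.5-fold. They became 0 with no filter, the slide column as a block or an adjusted p of 0.01. The count was 3 with quantile normalization, the mean of the kept probes or single probes. It was 4 with normexp, and 5 with the filter on all 8 arrays or with trend and robust. The totals over all features, given below, moved too. Fits without 1 array gave 0 to 2, and 0 members fell under any alternative. All features called, 1041, became 86 with a median shift, 261 without a shift, 1668 in the authors' value table, 163 with no filter, 1733 with the filter on all 8 arrays, 2001 with trend and robust, 2043 with array weights, 0 with the slide column as a block, 101 at an adjusted p of 0.01, 631 at 1.5-fold, and 195 to 927 without 1 array. The same total was 1301 of 24921 with normexp, 899 with quantile normalization, 901 with the mean of the kept probes and 810 with the row block. With single probes it was 1126 of 33848. Of the 1041 called features 68.6% were higher, beside 98.8% with a median shift and 88.1% without a shift. The pairs that differed, 0 of 13, became 0 to 8 without 1 array. The change of Gsta3 was -0.12 in the authors' table, -0.069 with array weights, -0.044, -0.029, -0.012 and -0.016 without vehicle replicates 2 and 4 and furan replicates 42 and 43, and -0.044 to 0.072 over all fits without 1 array. Gsta4 went to 0.38 with a median shift and 0.020 without a shift, and Gstm6 to 0.24 with a median shift. A shift by 1 value per array moves the changes of these genes by the same amount, and the median of all features stood at 0.39 with the median shift. The median signal was 130 on vehicle replicate 2 and 32.5 to 48.2 on the other arrays. What set that array apart, and why Gsta3 changed sign, was not tested. Over 20 named genes and 432 alternative values, 328 kept direction and side of the threshold, 74 lost the call, 21 gained it and 9 changed sign. The groups share no replicate numbers, so no pairing by replicate was made; the slide column, which holds 1 array of each group, was the one paired fit.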
